A study of Mus musculus with 13 samples.

Results

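The complement genes of the panel were examined in leukocytes of irradiated mouse tumors. The 9 members were taken by name, as the classical pathway genes C1qa, C1qb, C1ra, C1s1 and C4a, the shared component C3, the alternative pathway genes Cfb and Cfp, and the inhibitor Serping1, out of 547 immune genes measured. All 9 were among the 415 genes whose mean count over the samples exceeded background. RNA came from CD45+ cells, separated with magnetic beads from CT26 tumors, a colon carcinoma line growing under the skin of female BALB/c mice that were 6 weeks old when the study began. Tumors were irradiated locally with 5 doses of 2 Gy (2 Gy × 5) or a single dose of 7.5 Gy (7.5 Gy × 1), or were left unirradiated (0 Gy), and were taken on days 2, 7, 14 and 21 from the start of irradiation (T2, T7, T14 and T21). A further unirradiated sample was taken before radiotherapy (PreRT). There were 13 samples, 1 for each condition. The methods speak of several mice per group, and whether a sample pooled them is not stated. How many of the 5 doses preceded T2 is not given either, so the 2 Gy × 5 sample of T2 may come from within the course.

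Complement is a cascade of plasma proteins that marks cells and debris for uptake and can perforate membranes. In the classical pathway C1q binds antibody, dying cells or debris and sets off the proteases C1r and C1s, which cleave C4 and C2. In the alternative pathway factor B, the product of Cfb, joins activated C3 to form a C3-cleaving enzyme that properdin, the product of Cfp, holds together. Macrophages are a main source of C1q in tissues, while Cfb, C3, C1r, C1s and Serping1 are known to be induced by interferons in many cell types.

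Promoter sequence is shown for C3 and C1qb, 1 gene from each side of the contrast between C1q and the alternative pathway that runs through the values. RefSeq windows (GRCm38.p6, a C57BL/6J genome, not BALB/c) were matched for 5 of the 9 members, C1qb, C1ra, C1s1, C3 and Cfp. Each line gives the 250 bases before the annotated start, on the strand of the gene, with capitals marking a match to one of the motifs searched.
C3, chr17:57228137-57228386, minus strand: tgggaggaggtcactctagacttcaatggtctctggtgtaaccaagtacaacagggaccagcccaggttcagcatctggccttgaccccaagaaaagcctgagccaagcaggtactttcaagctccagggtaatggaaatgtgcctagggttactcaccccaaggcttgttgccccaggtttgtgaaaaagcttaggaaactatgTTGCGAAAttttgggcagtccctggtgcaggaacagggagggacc
C1qb, chr4:136886201-136886450, minus strand: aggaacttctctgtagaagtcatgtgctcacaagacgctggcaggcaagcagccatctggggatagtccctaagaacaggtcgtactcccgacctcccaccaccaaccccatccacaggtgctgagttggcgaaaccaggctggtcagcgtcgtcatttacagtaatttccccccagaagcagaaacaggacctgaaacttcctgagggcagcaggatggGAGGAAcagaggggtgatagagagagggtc
The motifs, searched on both strands, were TTCNNNGAA (gamma-activated site), GAGGAA (PU.1 type), TTGCNNAA (C/EBP type), the TATA box, the interferon-stimulated response element and the kappa B motif. In C3 the capitals are a C/EBP type match 45 to 38 bases before the start, a motif that 9.56% of 32851 promoter windows of this length hold. In C1qb they are a PU.1 type match 30 to 25 bases before the start, held by 23.3% of windows. The gamma-activated site, the interferon-stimulated response element and the kappa B motif, held by 7.02%, 2.98% and 1.21% of windows, had no match in the windows of the 5 members, nor had the TATA box (TATAAA, 12.4%). The only other match was of the C/EBP type, in C1s1, 242 to 235 bases before the start. A match describes the letters only.

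The nCounter system counts barcoded probes on RNA without amplification, and the levels given are the authors' normalized counts, scaled to 14 housekeeping genes. Total counts were 166307 to 675847 per sample (median 241239). The headers of the deposited counts number 3 sets of samples, called runs here. Run 1 held T7 and the 2 Gy × 5 sample of T14. Run 2 held the other T14 samples and T21, and run 3 held PreRT and T2. Runs 2 and 3 carry the same date, and what a set stands for is not stated. Positive control probes were at a geometric mean of 233 to 292 in run 2 and 537 to 876 in the others. Of the 415 genes, 57 separated run 2 from the other samples without overlap, and 0 members were among these. Ptprc, which encodes CD45, was at 200 to 1873 normalized counts, lowest in the 0 Gy sample of T21. This sample also held the lowest value of 6 of the 9 members, and every T21 difference from 0 Gy rests on it. Genes of CD45-negative cells were not absent. All 11 on the panel (Fn1, Cdh5 and Pdgfrb among them) were above background, with a summed level of 7818 to 24439 in irradiated samples, 6172 to 15856 in 0 Gy samples and 16548 at PreRT, and the part of such cells in the results was not tested.

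C1qa and C1qb encode chains of C1q, the recognition protein of the classical pathway, and had 534 to 6461 and 399 to 6275 raw counts. C1qa stood at 910, 1778, 3674 and 1212 normalized counts at T2, T7, T14 and T21 after 2 Gy × 5, at 456, 2414, 3023 and 1419 after 7.5 Gy × 1, and at 1376, 3945, 3008 and 754 at 0 Gy, with 1480 at PreRT. C1qb stood at 877, 1444, 3568 and 941 after 2 Gy × 5, at 411, 2263, 2329 and 1037 after 7.5 Gy × 1, and at 1082, 3144, 2087 and 538 at 0 Gy, with 1221 at PreRT. Both genes were lower in each irradiated sample than in the 0 Gy sample at T2 and T7 and higher at T14 and T21, apart from C1qa after 7.5 Gy × 1 at T14, which differed by 0.01 on the log2 scale. The lowest values were those of 7.5 Gy × 1 at T2, with log2 differences from 0 Gy of −1.59 for C1qa (95% counting interval −1.75 to −1.44) and −1.40 for C1qb (−1.57 to −1.23). The other differences past 2-fold were those of 2 Gy × 5 at T7, −1.15 (−1.25 to −1.05) and −1.12 (−1.23 to −1.01). The sign at T14 and T21 depended on the scaling. C1qa was above the 0 Gy sample in 4 of 8 comparisons on the housekeeping scale, in 2 with a median of ratios over the panel, in 1 with total counts and in 0 with leukocyte genes, and C1qb in 4, 3, 3 and 1.

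The macrophage and monocyte genes of the panel were lower beside C1q after 7.5 Gy × 1 at T2, and at T7 they went both ways. Their 13 members above background (of 14, with Marco not above background) summed to 2662 in the 7.5 Gy × 1 sample of T2, against 4661 in the 0 Gy sample, and 6 of 13 were 2-fold lower and 1 higher. At T7 the sums were 19861 after 2 Gy × 5 and 22516 after 7.5 Gy × 1, against 13185 at 0 Gy, but 3 of 13 were 2-fold higher and 1 lower after 2 Gy × 5, and 3 higher and 2 lower after 7.5 Gy × 1. The median log2 difference of the list at T7 was 0.29 after 2 Gy × 5 and 0.60 after 7.5 Gy × 1. Csf1r stood at 1186 after 2 Gy × 5, 1290 after 7.5 Gy × 1 and 1187 at 0 Gy. Cx3cr1, a chemokine receptor of monocytes and macrophages, stood at 69.5 after 2 Gy × 5, 93.5 after 7.5 Gy × 1 and 259 at 0 Gy. Their part in the C1q result was not tested. In bulk samples such as these, fewer cells of a type and less RNA per cell cannot be told apart. Across the 13 samples C1qa and C1qb had a Pearson r of 0.99 with each other, and 0.98 after each sample's panel median was subtracted. The genes of most similar log2 pattern outside the members were Adgre1, the F4/80 macrophage marker, Csf1r, the receptor for a macrophage growth factor, and Trem2, a lipid receptor of macrophages, for C1qa (r of 0.96, 0.93 and 0.92), and Adgre1, Ly86 and Csf1r for C1qb (0.97, 0.93 and 0.91). These are descriptions over 13 samples that share runs and scaling.

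**Figure D1:**
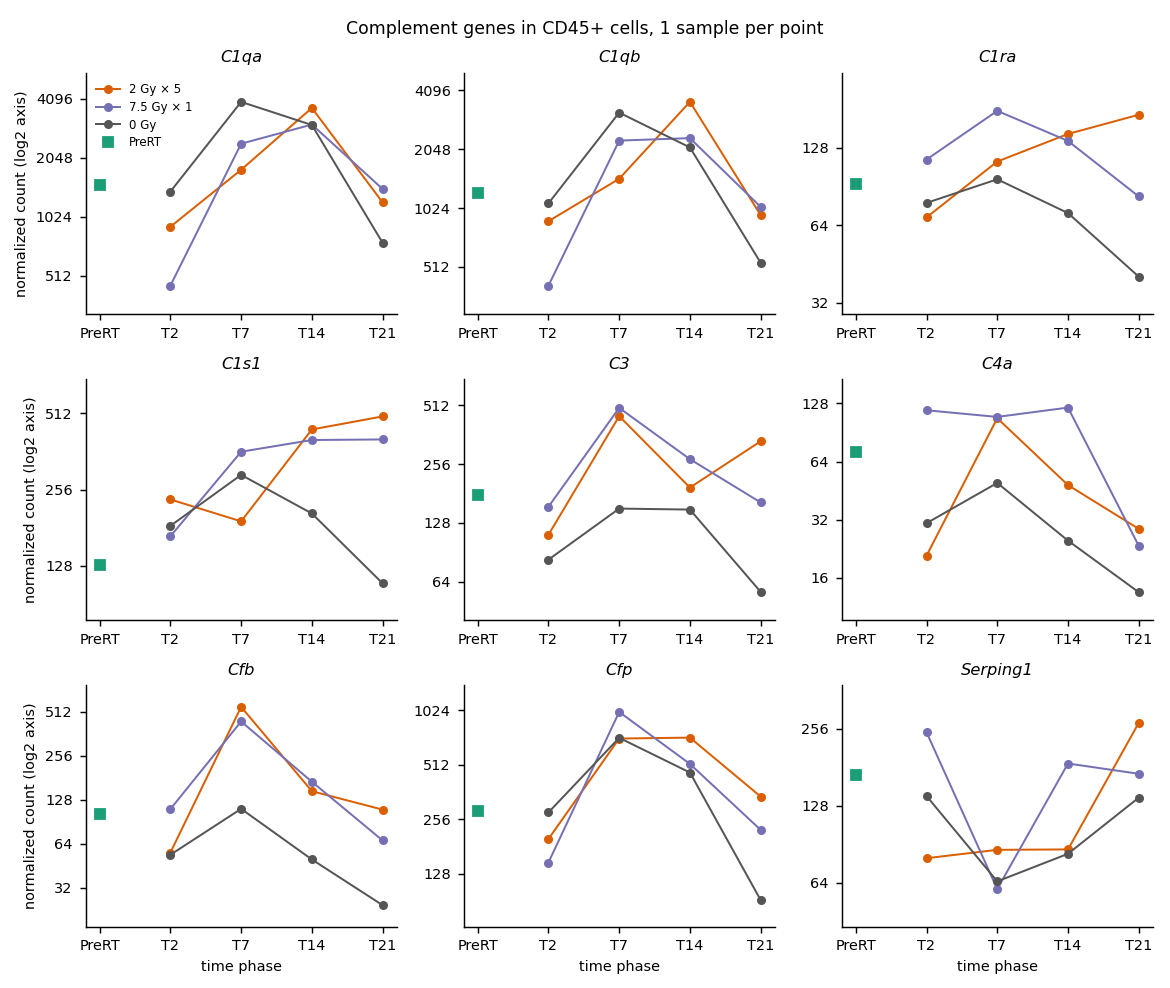
Normalized counts (log2 axis) of the 9 complement genes in CD45+ cells at PreRT (green square) and by time phase after 2 Gy × 5 (orange), 7.5 Gy × 1 (purple) and 0 Gy (grey), with 1 sample per point and no error bars. From T2 to T21, Cfb and C3 were highest at T7 in every arm. Cfb stood there at 551 and 438 in the irradiated arms and 111 at 0 Gy. C3 at 0 Gy was at 151 at T7 and 150 at T14. C1qa at T7 was lower in both irradiated arms than at 0 Gy (1778 and 2414, against 3945).

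C1ra and C1s1 encode the proteases that C1q carries. C1ra stood at 68.8, 113, 145 and 172 at T2, T7, T14 and T21 after 2 Gy × 5, at 115, 178, 136 and 82.9 after 7.5 Gy × 1, and at 78.3, 96.7, 71.5 and 40.5 at 0 Gy, with 92.6 at PreRT. C1s1 stood at 234, 192, 442 and 497 after 2 Gy × 5, at 167, 361, 401 and 404 after 7.5 Gy × 1, and at 184, 293, 206 and 109 at 0 Gy, with 130 at PreRT. On the housekeeping scale the 2-fold differences lay at T14 and T21 alone. C1ra and C1s1 were each 2-fold higher in 3 of 8 comparisons, but in 1 of 6 without the 0 Gy sample of T21. After 7.5 Gy × 1, C1ra was above 0 Gy from T2 on, at log2 differences of 0.56, 0.88, 0.93 and 1.03. At T14 and T21 both genes were higher in all 4 irradiated samples than at 0 Gy, by 0.93 to 2.09 on the log2 scale for C1ra and 0.96 to 2.19 for C1s1, except that C1ra after 7.5 Gy × 1 at T21 was at −0.03 when scaled to leukocyte genes. At T2 and T7 the differences lay between −0.19 and 0.88 for C1ra and between −0.61 and 0.35 for C1s1. The r between the genes was 0.70 (0.62 relative to the panel median).

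Serping1 encodes the C1 inhibitor, which blocks C1r and C1s. It stood at 79.9, 86.1, 86.4 and 269 after 2 Gy × 5, at 248, 60.5, 187 and 171 after 7.5 Gy × 1, and at 140, 64.9, 83.1 and 138 at 0 Gy, with 168 at PreRT. Its time course differed from that of the alternative pathway genes. At T7, where C3, Cfb and Cfp were at or near their highest in each arm, Serping1 was at its lowest after 7.5 Gy × 1 and at 0 Gy, and after 2 Gy × 5 it stayed between 79.9 and 86.4 until T14. Its r with C1qb was −0.61 and with Cfp −0.57 (−0.49 and −0.75 relative to the panel median). Only the 7.5 Gy × 1 sample of T14 was 2-fold from its 0 Gy sample, at a log2 difference of 1.17 (0.69 to 1.67), and with a median of ratios this was 0.88.

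C4a encodes a form of C4, the substrate of C1s. Mice carry a near-identical gene, C4b, that its probe may not separate, so the level is uncertain as to gene. C4a had 10 to 138 raw counts and was above background in 11 of 13 samples. It stood at 20.8, 107, 48.3 and 28.7 after 2 Gy × 5, at 118, 109, 122 and 23.5 after 7.5 Gy × 1, and at 30.7, 49.6, 24.9 and 13.5 at 0 Gy, with 71.4 at PreRT. The 7.5 Gy × 1 samples held a level of 109 to 122 from T2 to T14, while 2 Gy × 5 came near it only at T7, at 107. The 0 Gy samples of T14 and T21 were at background (15 and 10 raw counts). Against these, C4a at T14 was at least 1.59-fold higher after 2 Gy × 5 and at least 4.0-fold higher after 7.5 Gy × 1. At T21 it was at least 1.37-fold higher after 2 Gy × 5 and at least 1.12-fold higher after 7.5 Gy × 1. With leukocyte genes as the scale both T21 samples were below 0 Gy, at −0.67 after 2 Gy × 5.

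C3 encodes the protein on which all complement pathways converge. It stood at 111, 450, 194 and 335 after 2 Gy × 5, at 155, 496, 271 and 163 after 7.5 Gy × 1, and at 82.9, 151, 150 and 56.7 at 0 Gy, with 179 at PreRT. Each irradiated sample was above the 0 Gy sample of its phase, by 0.37 to 2.56 on the log2 scale and by 2-fold or more in both T7 and both T21 samples (4 of 8, and 2 of 6 without the 0 Gy sample of T21). The exception to the direction was the 2 Gy × 5 sample of T14, read in another run than its 0 Gy sample, at −0.20 with total counts and −0.32 with leukocyte genes. The T7 differences were 1.57 (1.26 to 1.89) after 2 Gy × 5 and 1.71 (1.42 to 2.02) after 7.5 Gy × 1, or 1.15 and 1.23 above the panel median.

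Cfb encodes factor B, the protease of the alternative pathway, and varied most of the members, with its highest value 22.7-fold above its lowest. It stood at 55.6, 551, 146 and 109 after 2 Gy × 5, at 110, 438, 170 and 67.3 after 7.5 Gy × 1, and at 53.7, 111, 49.9 and 24.3 at 0 Gy, with 102 at PreRT. It was the member most often 2-fold above the 0 Gy sample, in 7 of 8 comparisons, and in 5 of 6 without the 0 Gy sample of T21. The T7 differences were 2.32 (1.98 to 2.67) after 2 Gy × 5 and 1.98 (1.65 to 2.34) after 7.5 Gy × 1. At T14 they were 1.55 (1.00 to 2.15) and 1.77 (1.18 to 2.40), and at T21 they were 2.17 (1.42 to 3.0) and 1.47 (0.65 to 2.35). The 0 Gy samples of T14 and T21 held few Cfb counts, 30 and 18 raw, against background thresholds of 18.3 and 15.5. At T2 the regimens differed in value, 0.05 (−0.54 to 0.67) after 2 Gy × 5, or −0.19 with total counts, and 1.04 (0.49 to 1.62) after 7.5 Gy × 1. With leukocyte genes as the scale Cfb was above 0 Gy in 8 of 8 comparisons and 2-fold above in 4.

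C3 and Cfb followed each other with an r of 0.91 over the 13 samples (0.77 relative to the panel median). Outside the members, genes like C3 in pattern included Irf7, a transcription factor of interferon responses, and Cd274, which encodes PD-L1 (r 0.92 and 0.91). Those most like Cfb were Ddx58, the RNA sensor RIG-I, the chemokine gene Ccl5 and a probe not matched to a symbol (0.95, 0.94 and 0.94). Interferon-gamma response genes were higher beside both at T7. All 11 on the panel were above background, 8 were 2-fold higher than at 0 Gy after 2 Gy × 5 and 9 after 7.5 Gy × 1, and their sums were 11563 and 15471, against 4235 at 0 Gy. Their part in the C3 and Cfb values was not tested.

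Cfp encodes properdin, which leukocytes themselves make and release. It stood at 199, 714, 723 and 342 after 2 Gy × 5, at 148, 1001, 517 and 224 after 7.5 Gy × 1, and at 279, 721, 464 and 91.7 at 0 Gy, with 283 at PreRT. Its course was closer to C1q than to Cfb in these samples, with r of 0.89 to C1qb, 0.85 to C1qa and 0.76 to Cfb (0.77, 0.71 and 0.46 relative to the panel median). It was 2-fold above the 0 Gy sample at T21 alone, by 1.90 (1.5 to 2.31) after 2 Gy × 5 and 1.29 (0.86 to 1.72) after 7.5 Gy × 1, both against the 0 Gy sample of T21, and with leukocyte genes as the scale in 0 of 8 comparisons.

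The comparisons with the 0 Gy sample of the same phase set irradiated against unirradiated tumors of the same day. The paper reports regression of tumor volume after irradiation, so radiation and tumor size cannot be told apart. These comparisons rest on 1 sample each and have no test, both regimens share the 0 Gy sample, and the intervals cover counting error only. Over all 72 pairs of member and comparison, 25 were 2-fold higher and 4 were 2-fold lower. In the single comparisons 2.65% to 35.2% of the 415 genes were 2-fold higher and 0.482% to 17.1% lower. The member counts were 15 and 9 with total counts and 9 and 7 with leukocyte genes as the scale. On the housekeeping scale without the 0 Gy sample of T21 they were 14 and 4 of 54. At T2, 0 members were 2-fold higher after 2 Gy × 5 (2.65% of the 415 genes were) and 0 lower (5.54% of the genes). After 7.5 Gy × 1, C4a and Cfb were higher (3.61% of the genes) and C1qa and C1qb lower (17.1% of the genes). At T7, C3, C4a and Cfb were higher after both regimens (19.3% of the genes after 2 Gy × 5 and 22.2% after 7.5 Gy × 1), and C1qa and C1qb were lower after 2 Gy × 5 (1.69% of the genes). After 7.5 Gy × 1 at T7, 0 members were lower (1.69% of the genes). All 4 lower calls on the housekeeping scale were of the C1q chains. On other scales this did not hold. C1s1 was 2-fold lower in 1 comparison with a median of ratios, with total counts and with leukocyte genes. With total counts Cfp and Serping1 were also 2-fold lower in 1 comparison each.

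At T14, C1ra, C1s1 and Cfb were higher after 2 Gy × 5 (15.9% of the genes), a comparison across runs, and C4a, Cfb and Serping1 after 7.5 Gy × 1 (11.8% of the genes). At T21, all members but C1qa, C1qb and Serping1 were higher after 2 Gy × 5 (35.2% of the genes), and C1ra, C1s1, C3, Cfb and Cfp after 7.5 Gy × 1 (14% of the genes). Some marker lists were higher beside them at T21 and others were not. Of the macrophage, neutrophil and leukocyte genes, 9 of 13, 5 of 5 and 4 of 5 were 2-fold higher after 2 Gy × 5. After 7.5 Gy × 1 these counts were 6 of 13, 5 of 5 and 3 of 5. The interferon-gamma response list had 6 of 11 and 3 of 11 higher. Of 8 T cell genes, 2 were higher after 2 Gy × 5, and 1 was higher and 1 lower after 7.5 Gy × 1. Of 11 genes of CD45-negative cells, 1 was higher and 1 lower after 2 Gy × 5. After 7.5 Gy × 1, 0 of these 11 were 2-fold higher or lower. The part of these lists in the T21 values was not tested. No member was 2-fold lower at T14 (6.51% of the genes after 2 Gy × 5 and 0.723% after 7.5 Gy × 1) or at T21 (0.482% and 2.41%). The median log2 difference of the members and of the panel was 1.90 and 0.71 at T21 after 2 Gy × 5, 1.03 and 0.21 after 7.5 Gy × 1, and at T7 0.23 and 0.42 after 2 Gy × 5 and 0.47 and 0.48 after 7.5 Gy × 1. Scaling by a median of ratios moved all genes by −0.72 to 0.12 on the log2 scale over the 8 comparisons, most at T21 after 2 Gy × 5.

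**Figure D2:**
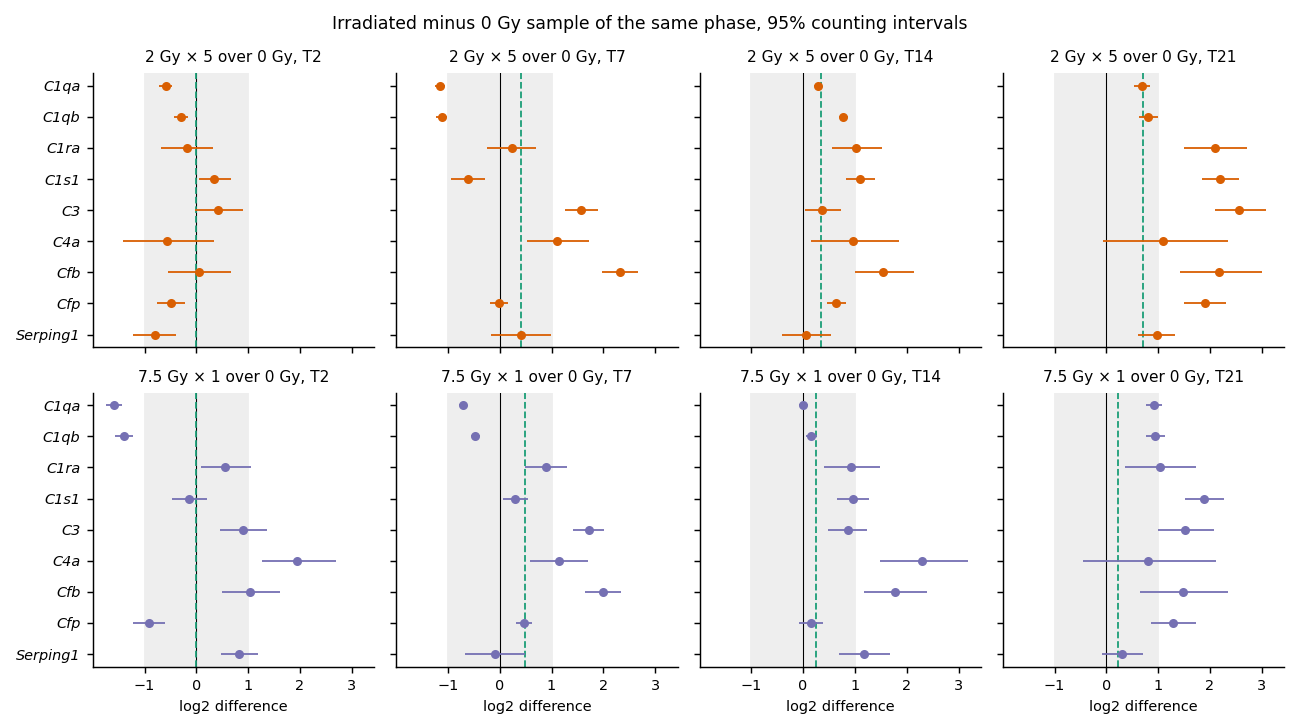
Log2 difference of the irradiated from the 0 Gy sample of the same phase for the 9 genes, with 95% intervals for counting error, after 2 Gy × 5 (top row) and 7.5 Gy × 1 (bottom row). The shaded band is a difference under 2-fold and the dashed green line is the median of the 415 genes, and Cfb lies past the band to the right in 7 of 8 panels.

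Each regimen was then tested against 0 Gy over the 4 phases in edgeR on raw counts, in a model with a term for phase. The fold changes are relative to the panel, since TMM factors centre it near 0. After 7.5 Gy × 1, Cfb rose with a log2 fold change of 1.37 ± 0.29 (SE, adjusted p = 0.031), and this was 1 member of 9, while 1.2% of the 415 genes were called. The other calls included Irf7 and Stat2, which carry or amplify interferon signals, and a probe that was not matched to a symbol. C4a was at 1.45 ± 0.39 (adjusted p = 0.084) and C3 at 1.02 ± 0.27 (adjusted p = 0.080), and the remaining members had adjusted p from 0.435 to 1.

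After 2 Gy × 5, 0 of 9 members and 0% of the genes passed in edgeR, with 70 genes and 2 members at an unadjusted p under 0.05 and 40 genes, Cfb and C3 among them, called by DESeq2. Cfb was at 1.22 ± 0.29 (adjusted p = 0.055) and C3 at 0.88 ± 0.27 (adjusted p = 0.092). C1qa was at −0.58 ± 0.34 and C1qb at −0.31 ± 0.35 after 2 Gy × 5, and at −0.55 ± 0.34 and −0.40 ± 0.35 after 7.5 Gy × 1, none past the threshold (edgeR adjusted p from 0.42 to 0.82). With housekeeping factors the C1qb value after 2 Gy × 5 was 0.01. Without the 0 Gy sample of T21 the values after 7.5 Gy × 1 were −0.83 for C1qa and −0.65 for C1qb. The difference between the regimens was not tested, and phases stand in for replicates.

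The Cfb call after 7.5 Gy × 1 depended on the setting. It was lost with housekeeping factors (adjusted p = 0.083), in limma on the normalized values (0.084), with the run as a term (0.068), without the 2 Gy × 5 sample of T14 (0.068), without the 0 Gy sample of T21 (0.087) and without T7, T14 or T21 (0.13 to 0.29). Over the whole panel, 0 genes were called with housekeeping factors, in limma, without T7, without T14 and without the 0 Gy sample of T21. There was 1 gene called without T21, and 2 with the run as a term or without the 2 Gy × 5 sample of T14. DESeq2, no filter, subtracted background and leaving out T2 kept the Cfb call, with 15, 5, 5 and 3 genes called. Its log2 fold change lay between 1.25 and 1.56 throughout.

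**Figure D3:**
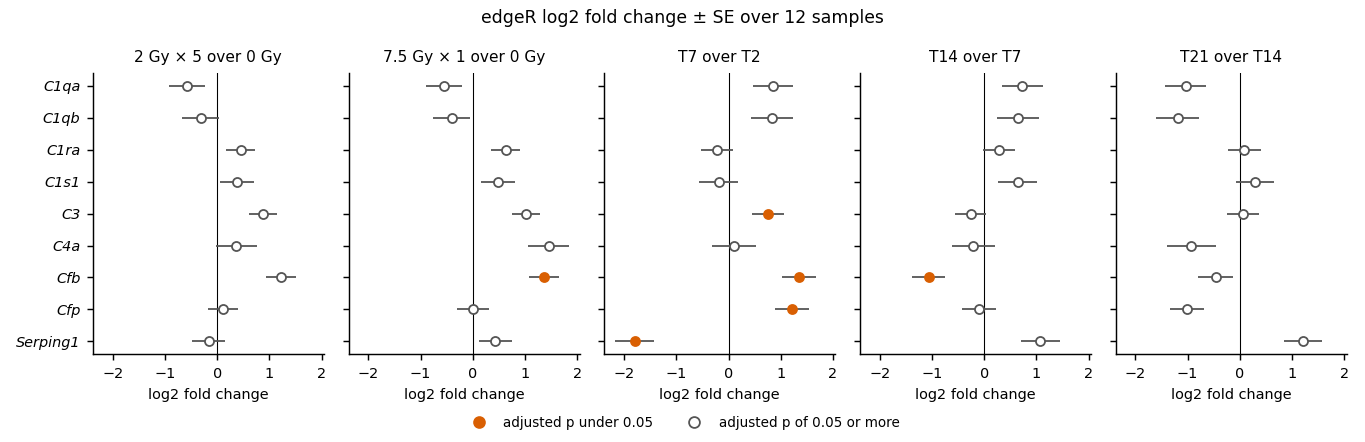
Log2 fold change with SE of the 9 genes in the 5 edgeR contrasts, fitted on 12 samples, for each regimen over 0 Gy and for each phase over the one before it. Filled orange points passed an adjusted p of 0.05, Cfb in 3 contrasts and C3, Cfp and Serping1 in that of T7 over T2.

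Against PreRT the question was how each arm moved from the state before radiotherapy. All 12 comparisons share the PreRT sample, and those of T7, T14 and T21 cross runs. Over 108 pairs of member and sample, 20 were 2-fold higher and 19 lower. In the single comparisons 0.723% to 41.7% of the 415 genes were 2-fold higher and 3.61% to 38.1% lower, so the pooled counts alone do not set the members apart. At T2, 0 members were higher in any arm (2.41% of the genes after 2 Gy × 5, 2.65% after 7.5 Gy × 1 and 0.723% at 0 Gy). C4a and Serping1 were lower after 2 Gy × 5 (12% of the genes), C1qa and C1qb after 7.5 Gy × 1 (25.1%), and C3 and C4a at 0 Gy (5.78%). Both C1q chains were 2-fold lower than at PreRT only in the 7.5 Gy × 1 sample at T2, where the log2 differences were −1.70 (−1.85 to −1.55) for C1qa and −1.57 (−1.73 to −1.41) for C1qb.

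At T7 the higher members differed between irradiated and 0 Gy samples. C3, Cfb and Cfp were higher after 2 Gy × 5 (37.6% of the genes), and C1s1, C3, Cfb and Cfp after 7.5 Gy × 1 (41.7%), whereas C1qa, C1qb, C1s1 and Cfp were higher at 0 Gy (19%). The log2 difference of Cfb was 2.44 after 2 Gy × 5, 2.10 after 7.5 Gy × 1 and 0.12 at 0 Gy. That of C1qa was 0.26 after 2 Gy × 5, 0.71 after 7.5 Gy × 1 and 1.41 at 0 Gy. No member was lower after 2 Gy × 5 (3.61% of the genes). Serping1 was lower after 7.5 Gy × 1 (5.54% of the genes), at −1.47, and at 0 Gy (6.02%), at −1.37, while 2 Gy × 5 was at −0.96. With leukocyte genes as the scale C3 at T7 was at −0.27 after 2 Gy × 5 and −0.26 after 7.5 Gy × 1.

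At T14, C1qa, C1qb, C1s1 and Cfp were higher than PreRT after 2 Gy × 5 (21.2% of the genes), C1qa and C1s1 after 7.5 Gy × 1 (20.5%), and C1qa at 0 Gy (13.3%). C4a (2.35-fold with the 0 Gy count set to its background threshold), Cfb and Serping1 were lower at 0 Gy (15.2%). The counting interval of this C4a difference was −2.45 to −0.67 on the log2 scale. No member was lower after either regimen (8.19% of the genes after each). At T21, C1s1 was higher after 2 Gy × 5 (18.1%) and after 7.5 Gy × 1 (8.92%), at 1.94 and 1.64, and no member was higher at 0 Gy (5.06%). C4a was lower after both regimens (12.3% after 2 Gy × 5 and 25.3% after 7.5 Gy × 1). At 0 Gy 6 members, all but C1qa, C1s1 and Serping1, were lower (38.1%). C4a was lower there by 3.41-fold with its count set to the threshold (log2 counting interval −3.54 to −1.42). With leukocyte genes as the scale, C1qb and C1ra in that 0 Gy sample stood at 0.04 and 0.02.

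Successive phases were tested against each other in the same edgeR model, which has a term for arm. T7 was set against T2 first. There 4 of 9 members changed, 3 higher and 1 lower, while 53.3% of the 415 genes did (27.2% higher and 26% lower). Cfb rose by 1.35 ± 0.32 (adjusted p = 0.0038), Cfp by 1.21 ± 0.33 (adjusted p = 0.0070) and C3 by 0.76 ± 0.30 (adjusted p = 0.046), and Serping1 fell by 1.80 ± 0.38 on the log2 scale (adjusted p = 0.0022). C1qa was at 0.85 ± 0.39 (adjusted p = 0.079) and C1qb at 0.83 ± 0.40 (adjusted p = 0.098). Both passed with housekeeping factors, at 1.59 (adjusted p = 0.0098) and 1.57 (adjusted p = 0.013), and in limma, and C1qa passed in DESeq2 (adjusted p = 0.040). T2 and T7 were read in different runs, so phase and run cannot be told apart in this contrast. The C3 call was lost without any 1 of the arms (adjusted p = 0.056 to 0.15), with no filter (0.054) and with background subtracted (0.058), the Cfb call without 2 Gy × 5 (0.82, adjusted p = 0.059), the Cfp call without 7.5 Gy × 1 (0.99, adjusted p = 0.087), and the Serping1 call with housekeeping factors (adjusted p = 0.061) and in limma (adjusted p = 0.070).

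At T14 compared with T7, Cfb fell by 1.07 ± 0.31 (adjusted p = 0.046), the only member called, while 8.67% of the genes were. This call was lost when any 1 arm was left out (adjusted p = 0.14 to 0.23). It was lost without the 2 Gy × 5 sample of T14 (0.091) and without the 0 Gy sample of T21 (0.060). It was also lost with background subtracted (0.056) and with the run as a term (0.57). The log2 fold changes were −1.17 to −0.83 in these settings. Over the whole panel, 0 genes were called without the 0 Gy arm or with the run as a term. There were 3 without 7.5 Gy × 1 and 21 to 53 in the other settings. At T21 compared with T14, 0 members were called by edgeR, with 4 at an unadjusted p under 0.05 and 4 called by DESeq2, while 5.54% of the genes were called. The 4 at an unadjusted p under 0.05 were C1qa at −1.04 ± 0.39, C1qb at −1.19 ± 0.41, Cfp at −1.02 ± 0.33 and Serping1 at 1.21 ± 0.36 (adjusted p = 0.096, 0.075, 0.061 and 0.058). Without the 0 Gy sample of T21 they were at −0.73, −0.92, −0.68 and 1.22.

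C1q was set against Cfb and C3 within each sample, as the mean log2 of C1qa and C1qb minus the log2 of the other gene. The scaling of samples cancels in this ratio. Its size depends on the probes as well as on the RNA, so only its differences between samples are read. C1q over Cfb was 4.01, 1.54, 4.63 and 3.29 at T2, T7, T14 and T21 after 2 Gy × 5, 1.97, 2.42, 3.97 and 4.17 after 7.5 Gy × 1, and 4.51, 4.99, 5.65 and 4.71 at 0 Gy, with 3.72 at PreRT. It was lower in every irradiated sample than in its 0 Gy sample, with log2 differences from −3.45 to −0.50 (mean −1.72 over 8 comparisons, −1.96 over 6 without the 0 Gy sample of T21, and −1.82 over the 7 within runs). All 4 of the 0 Gy samples after PreRT were above the irradiated samples of any phase but 1, since the 2 Gy × 5 sample of T14, at 4.63, was above the 0 Gy sample of T2, at 4.51.

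C1q over C3 was 3.01, 1.83, 4.22 and 1.67 after 2 Gy × 5, 1.49, 2.24, 3.29 and 2.90 after 7.5 Gy × 1, and 3.88, 4.54, 4.07 and 3.49 at 0 Gy, with 2.91 at PreRT. It was lower than at 0 Gy in 7 of 8 comparisons, with a mean difference of −1.41, and of −1.48 without the 0 Gy sample of T21 and −1.64 within runs. The exception was 2 Gy × 5 at T14, at 0.16 above its 0 Gy sample. The lowest C1q over Cfb came from both regimens at T7 and from 7.5 Gy × 1 at T2, with differences from 0 Gy of −3.45, −2.58 and −2.53. At T7 the numerator and the denominator both differed, since C1qa was lower and Cfb higher than at 0 Gy, while at T21 C1qa was also higher and Cfb more so. No test was made of a ratio over chosen members.

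**Figure D4:**
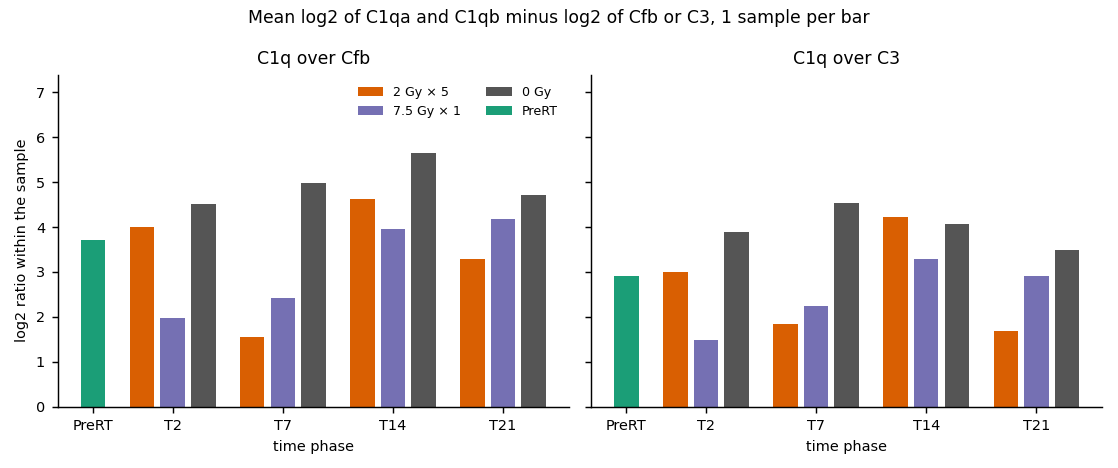
Log2 ratio of C1q (mean of C1qa and C1qb) over Cfb (left) and over C3 (right) within each sample, by time phase after 2 Gy × 5 (orange), 7.5 Gy × 1 (purple) and 0 Gy (grey) and at PreRT (green), with 1 sample per bar. Within each phase the 0 Gy bar is the tallest, except for C1q over C3 at T14, where 2 Gy × 5 reached 4.22 and 0 Gy 4.07.

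The panel held 24 other complement genes, of which 9 were above background. The other 15 included C2, which is cleaved by C1s, the terminal component gene C9 and Cfd, the protease that activates factor B, each with a mean raw count of 6.23 to 8.54. Those with the most counts were Clu, which encodes the membrane attack inhibitor clusterin (1271 to 3462 normalized counts), C1qbp, a C1q binding protein of mitochondria (499 to 1077), and Itgam, a chain of complement receptor 3 (118 to 1471). In the contrasts of irradiated and 0 Gy samples over phases, 0 of the 9 were called in edgeR after either regimen, and 0 by DESeq2. At T7 compared with T2, where 53.3% of all genes were called, 6 of 9 were called in edgeR, 7 in DESeq2 and 4 in limma, with Itgam at 1.45 ± 0.37 (adjusted p = 0.0055), Itgb2, the other chain of receptor 3, at 1.38 ± 0.30 (adjusted p = 0.0024) and Itgax, a chain of receptor 4, at 0.78 ± 0.23 (adjusted p = 0.012) among those that rose.

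Clu, C1qbp and Masp1, a protease of the lectin pathway, fell in the same contrast by 1.16 ± 0.37, 1.20 ± 0.31 and 1.23 ± 0.32 on the log2 scale (edgeR adjusted p = 0.016, 0.0055 and 0.0061), and with housekeeping factors their values were −0.36, −0.43 and −0.44. C6, a component of the membrane attack complex, rose at T14 compared with T7 by 2.24 ± 0.51 (edgeR adjusted p = 0.022). It had 7.70 to 15.3 normalized counts at T7 and was above background in 8 of 13 samples. The T14 samples of run 2 were at 54.8 (0 Gy) and 69.6 (7.5 Gy × 1). The 2 Gy × 5 sample of T14, in run 1 with T7, was at 17.6. In this contrast limma called 0 of the 9 other complement genes. With the run as a term edgeR called 0 genes of the whole panel.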

How the data were processed

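RNA of CD45+ tumor cells was counted on an nCounter mouse immunology panel. The raw values are counts per probe as deposited, and the normalized values (signal) were made by the authors by scaling each sample to housekeeping genes. A deposited percent column, the share of samples above a threshold, was not used in any result. The software is not given in the sources used here. A count was called above background past the mean plus 2 SD of a sample's 8 negative probes, and 415 of 547 genes, whose mean count exceeded the mean threshold of 13.1, were tested. Probes were matched to symbols through a RefSeq table (537 of 547).

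Log2 differences between single samples were taken of the normalized values, floored at 1, with 95% intervals for counting error only. With 1 sample per condition, no difference between samples has a replicate check. edgeR 4.0.16 (quasi-likelihood test, TMM factors, Benjamini-Hochberg over 415 genes, threshold 0.05) was fitted on 12 samples, without PreRT, with terms for phase and arm. Phases or arms thus stand in for replicates. The p-values set a difference against the spread that these terms leave between samples. They do not cover the variation between mice of 1 condition. On simulated counts for 415 genes, of which 200 were changed, the contrast of 7.5 Gy × 1 with 0 Gy recovered 72% of 2-fold and 100% of 4-fold changes. The contrasts of T14 with T7 and T21 with T14 recovered 58% and 59% of 2-fold changes. The simulation had no run effects and changed far more genes than the 5 called after 7.5 Gy × 1. Its shares therefore need not hold for the measured counts, and an uncalled member is not shown to be unchanged. Alternatives were DESeq2 1.42.0, limma 3.58.1, other scalings, no filter, subtracted background, a pseudocount of 10, a run term, leaving out each phase or arm, and C1qa or C1qb alone. Scaling to 5 leukocyte genes, and leaving out the 2 Gy × 5 sample of T14 or the 0 Gy sample of T21, were added after seeing the data. R 4.3.3 and Python 3.11.15 were used.

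The members and lists were chosen with earlier results of these data known. Named were all members, other complement genes called in a contrast and otherwise those 3 with the most counts, and, for C1qa, C1qb, Cfb and C3, the 3 genes of highest Pearson r. C2, C9 and Cfd were named after their values were seen. Some genes that this rule would name are not reported here.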

Additional observations from a re-analysis of the deposited data

How the results depend on the processing

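No paired analysis was possible because each condition had 1 sample, so no replicate numbers could be paired beyond the phase and arm terms that each fit holds. After 2 Gy × 5 against 0 Gy, 0 members were called in edgeR, 2 in DESeq2, 1 with no filter and 0 to 1 with 1 phase left out. After 7.5 Gy × 1 the count of 1 became 3 in DESeq2, 0 with housekeeping factors, in limma, with a run term, without the 2 Gy × 5 sample of T14 and without the 0 Gy sample of T21, and 0 to 1 with 1 phase left out. Where it became 0, edgeR or limma called 0 to 2 genes of the whole panel. For T7 against T2 the 4 calls became 5 with housekeeping factors and in limma (C1qa and C1qb added, Serping1 lost), 5 in DESeq2 (C1qa added) and 2 to 3 with 1 arm left out, and a run term could not be estimated. For T14 against T7 the count of 1 became 2 in DESeq2 and 0 with background subtracted, a run term, either sample left out or any 1 arm left out. For T21 against T14 the count of 0 became 3 with housekeeping factors and in limma, 4 in DESeq2 and 0 to 3 with 1 arm left out.

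Over all genes, edgeR, DESeq2 and limma called 0, 40 and 0 after 2 Gy × 5, 5, 15 and 0 after 7.5 Gy × 1, 221, 247 and 205 for T7 against T2, 36, 63 and 47 for T14 against T7, and 23, 97 and 64 for T21 against T14. The split of calls moved with the scale. For T7 against T2 it was 113 higher and 108 lower in edgeR and 183 and 22 in limma on the housekeeping scale, for T14 against T7 it was 20 and 16 in edgeR and 4 and 43 in limma, and for T21 against T14 it was 8 and 15 in edgeR and 0 and 64 in limma.

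Of pairs 2-fold from 0 Gy, 25 were higher and 4 lower (2.65% to 35.2% and 0.482% to 17.1% of the genes by comparison). The member counts were 15 and 9 with total counts, and 9 and 7 with leukocyte genes. With a median of ratios the lower count was 7, and the higher count moved too. On that scale C4a was 2-fold higher in 2 comparisons against 5, C1ra in 1 against 3 and C1s1 in 2 against 3. Serping1 was so in 0 against 1 and C3 in 5 against 4. Of pairs 2-fold from PreRT, 20 were higher (0.723% to 41.7% of the genes by comparison), against 7 with total counts and 8 with leukocyte genes. The direction turned for C1qb after 2 Gy × 5 over phases, at −0.31 in edgeR, 0.0091 with housekeeping factors, 0.039 in limma and −0.56 to 0.12 with 1 phase left out. With leukocyte genes it turned for C4a after 2 Gy × 5 (−0.67) and C1ra after 7.5 Gy × 1 (−0.029) at T21 against 0 Gy. Against PreRT it turned at T7 for C3 (−0.27) and Cfp (−0.27) after 2 Gy × 5 and for C1s1 (−0.25) and C3 (−0.26) after 7.5 Gy × 1, and at T21 for C1qb (0.036) and C1ra (0.024) at 0 Gy. The cause of these changes was not tested. C4a, at 10 to 138 raw counts, is the member whose differences the counting depth limits most.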

Other observations

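With each sample's panel median subtracted, the gene most similar in pattern over the 13 samples was Adgre1 for C1qa (r = 0.93) and C1qb (r = 0.94). For Cfb it was a probe not matched to a symbol (r = 0.90). Neutrophil genes, 5 of 8 above background with Cxcr1, Camp and Ltf not, summed to 882 to 53021 normalized counts in irradiated samples, 1852 to 17532 in 0 Gy samples and 1161 at PreRT. T cell genes, 8 of 8 above background, summed to 128 to 746 in irradiated samples, 181 to 387 in 0 Gy samples and 544 at PreRT. Their part in the complement values was not tested.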
